A study of Mus musculus with 50 samples.

Results

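The genes described here are 9 transcripts of the FOXO and mTORC1 stress response: the transcription factors Foxo1, Foxo3, Foxo4 and Foxo6, the mTORC1 inhibitors Ddit4 and Ddit4l, the FOXO-responsive gene Depp1, and the sestrins Sesn1 and Sesn3. They were taken by symbol from the 52338 gene rows shared by the count tables of the study. The set was put together with their measured differences between genotypes already known, so those differences chose the members and are given below as a description, without p-values. All 9 genes passed the filter on low counts in quadriceps, 7 passed in the early fat samples (not Foxo6 and Ddit4l) and 8 in the late fat samples (not Foxo6).

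The study asked how activating neurons that express Gfral, the hindbrain receptor of the stress hormone GDF15, alters transcripts in peripheral tissue. Every mouse was a male carrying hM3Dq, an engineered receptor through which the drug clozapine N-oxide (CNO) excites neurons, and every mouse received CNO at 1 mg/kg. TG mice also carried Gfral-Cre and WT mice did not, so each comparison sets Cre-positive against Cre-negative mice after the same drug, and there was no undrugged group. Quadriceps of mice that underwent a clamp gave 20 of the 50 libraries (10 WT and 10 TG), and perigonadal white fat (pgWAT) gave 18 collected 1 h after the drug (9 WT and 9 TG) and 12 collected 6 h after it (6 WT and 6 TG). The labels used here give no ages and do not say that replicates are separate mice, so a p-value compares a difference only with the spread among these samples, which may be technical. The promoter that drives hM3Dq was not given in the sources used here.

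FOXO proteins are forkhead transcription factors that insulin, through the kinase AKT, keeps out of the nucleus; in fasting they enter it and switch on genes for catabolism, autophagy and stress resistance. mTORC1 is the kinase complex that drives growth when nutrients and insulin are plentiful. DDIT4, also called REDD1, restrains mTORC1 through the TSC complex and is a known target of glucocorticoids, hypoxia and FOXO factors, while sestrins restrain it by binding the GATOR complexes when leucine is scarce. Fat and muscle both use these brakes during fasting.

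Stretches next to the transcription start sites of 3 members (Ddit4, Depp1 and Sesn1) are printed here. Each holds a match to a binding motif of a factor known to act on this group. The members were chosen with their differences known and a motif form was taken from Depp1, so nothing is read from which members hold a match. RefSeq start regions (build GRCm38.p6, 250 bases before to 50 after the start) were found for Foxo1, Foxo3, Ddit4, Ddit4l, Depp1, Sesn1 and Sesn3. Capitals mark ACGTG, the core of the hypoxia response element, or a forkhead motif, searched on both strands in 4 forms. These were the consensus GTAAACA, the form GTAAATA found in Depp1, and the related forms ATAAACA as well as, differing again by a base, ATAAATA; all but the consensus were added after the sequences had been seen.
Ddit4: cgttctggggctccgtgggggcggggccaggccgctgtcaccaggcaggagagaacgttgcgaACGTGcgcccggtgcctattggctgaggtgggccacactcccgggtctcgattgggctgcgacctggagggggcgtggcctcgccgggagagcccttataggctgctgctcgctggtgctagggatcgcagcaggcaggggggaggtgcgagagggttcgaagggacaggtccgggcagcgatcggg
Depp1: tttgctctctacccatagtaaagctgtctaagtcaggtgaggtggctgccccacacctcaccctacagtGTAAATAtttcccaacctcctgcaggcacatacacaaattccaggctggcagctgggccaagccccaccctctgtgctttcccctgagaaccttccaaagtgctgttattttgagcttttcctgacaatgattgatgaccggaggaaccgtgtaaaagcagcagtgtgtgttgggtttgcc
Sesn1: agaaccttctacTGTTTACcagccttttgg
The Ddit4 sequence is chr10:59951771-59952020 on the minus strand, with its match beginning 187 bases before the start. The Depp1 sequence is chr6:116650434-116650683 on the plus strand, with its match 181 bases before the start. The Sesn1 sequence is the 30 bases at chr10:41810584-41810613 on the plus strand, where GTAAACA reads on the other strand as TGTTTAC. Its match lies after the start, beginning at base 23 counted from the start site. Another Sesn1 start region, at chr10:41887189-41887488, held no forkhead or hypoxia match. Among 32851 RefSeq start regions of the same length, 15.0% held at least 1 of the 4 forkhead forms, 3.65% held GTAAACA, 3.04% held GTAAATA and 19.6% held ACGTG. The glucocorticoid receptor half-site AGAACA (19% of all regions) and the ATF4 motif TGATGNAA (3.97%) were not found in any region searched for these members. The regions of Foxo1, Foxo3, Ddit4l and Sesn3 held no forkhead or hypoxia match. Foxo4 and Foxo6, for which no region was found, were not searched. A match describes letters in this window and says nothing of binding.

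Quadriceps libraries held 959980 to 2613672 gene counts, the 1 h fat libraries 976610 to 4852560 and the 6 h fat libraries 9150496 to 12883462. Levels are in CPM, which sets each count against its library total after TMM scaling, and at these depths the 3 counts that a count of 0 allows equal up to 3.13, 3.07 and 0.328 CPM, for counting error only. Markers matched the labelled tissues: summed skeletal muscle markers were at least 33000 CPM in quadriceps, and summed adipocyte markers at least 8748 CPM in pgWAT. Libraries in which summed liver, duct epithelium or inducible heat shock transcripts exceeded 5 times the median of their set numbered 3 in quadriceps, 9 in pgWAT at 1 h and 1 at 6 h, and results that change without these libraries in doubt are marked below. Among them, TG quadriceps replicate 7 was counted only for a liver sum of 3.986 CPM, near the limit of counting given above. The 6 h libraries were made with another kit, so kit and time cannot be told apart within pgWAT, and in any bulk tissue fewer cells of a type and less RNA per cell cannot be told apart.

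Over the 9 members, TG tissue had more Ddit4 in all 3 sets, more Depp1 in fat at both times, and more Foxo1, Foxo3 and Sesn1 in fat at 6 h. With edgeR's quasi-likelihood test over all genes and a threshold of 0.05 on the adjusted p, 1 of 9 members was past the threshold as higher in TG quadriceps, where 1.09% of all tested genes were higher and 0.942% lower. In pgWAT 2 of 7 tested members were past it as higher at 1 h, where 0.0541% of genes were higher and 0.018% lower. At 6 h 5 of 8 were past it as higher, where 6.88% of genes were higher and 7.54% lower. No member was past it as lower in TG in any set. Because the members were chosen on these contrasts, nothing is read from those counts, nor from genotypes that do not overlap below. The share of all tested genes without overlap between genotypes was not computed. The median log2 of TG over WT across tested members was -0.05 for quadriceps, 0.12 for the 1 h fat and 0.69 for the 6 h fat, and over all tested genes it was -0.003, 0.009 and 0.002.

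**Figure D1:**
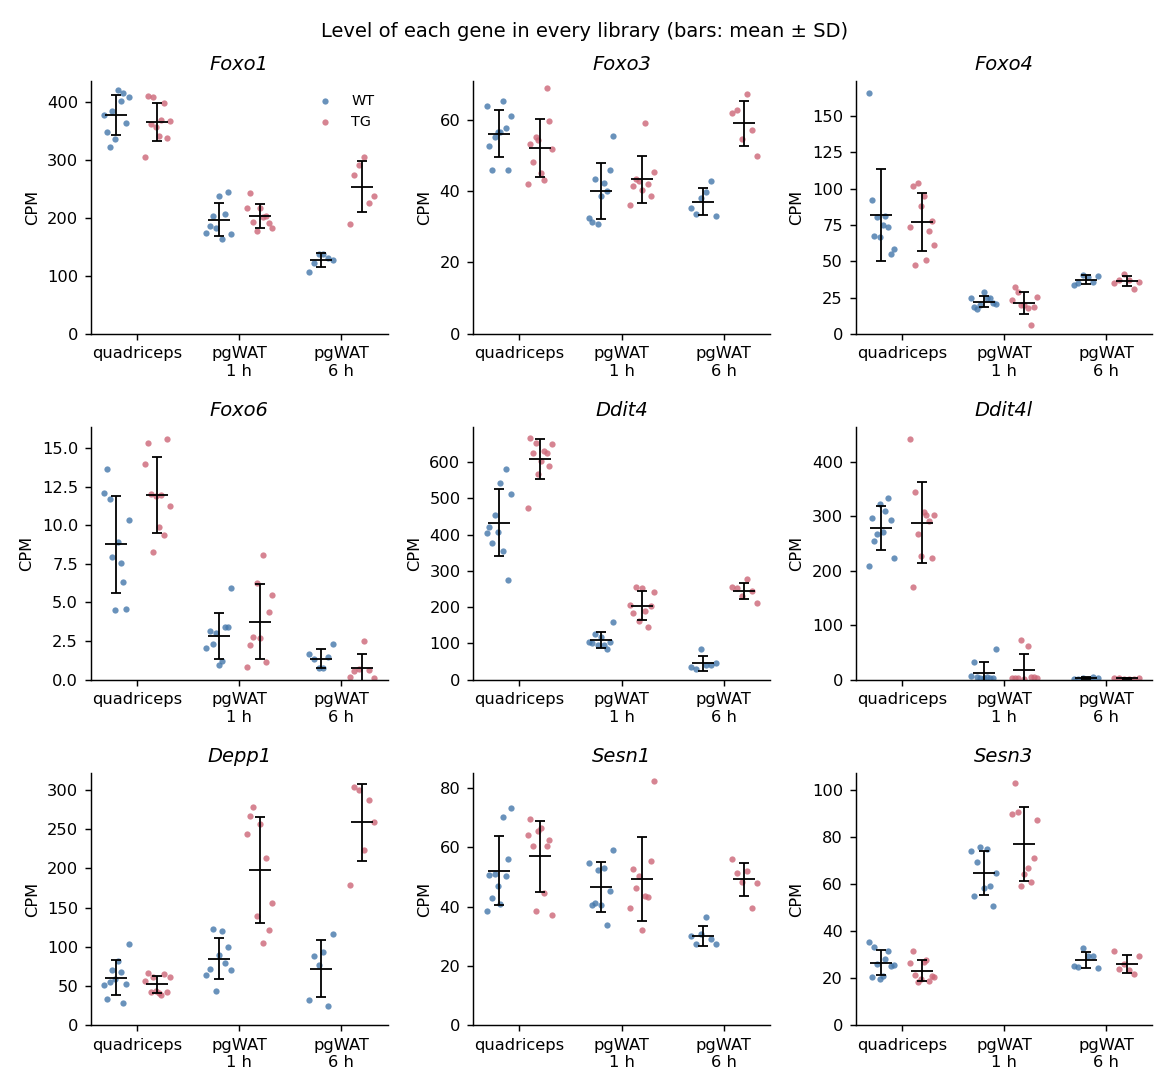
Level of each of the 9 genes in CPM in every library, WT in blue and TG in red, for quadriceps, pgWAT at 1 h and pgWAT at 6 h; each point is a library and the black bars are the mean ± SD (n = 10, 9 and 6 per genotype). At 6 h the TG points lie above every WT point for Foxo1, Foxo3, Ddit4, Depp1 and Sesn1, while those of Foxo4, Ddit4l and Sesn3 overlap. The genes were chosen with this contrast known, and the share of all tested genes that do not overlap was not computed.

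Foxo1 (ENSMUSG00000044167, chromosome 3, 52268336 to 52353221, GRCm38 with GENCODE vM21 as for all positions here) is the main FOXO factor of insulin-responsive tissues. In pgWAT at 6 h its WT libraries had 106.5 CPM at the lowest, 128 at the median and 138 at the highest, and its TG libraries 189.9, 255 and 305. Every TG library was above every WT library, and the means were 127 ± 11.8 and 254 ± 43.9 CPM (SD, n = 6), a log2 difference of 1.00 (SE 0.10). At 1 h the WT libraries ran from 164 to 244 CPM and the TG libraries from 177 to 243, with a log2 difference of 0.04 (SE 0.09). These ranges overlapped almost entirely. In quadriceps the means were 377 ± 34.5 CPM in WT and 365 ± 33.0 in TG (n = 10), again overlapping. Foxo1 shares its position with the predicted genes Gm38034 on the same strand and Gm20402 on the other, and the strand setting of the counting was not given in the sources used here.

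Foxo3 (ENSMUSG00000048756, chromosome 10, 42181841 to 42276755), the factor best known for muscle atrophy and autophagy genes, followed the same order in fat. At 6 h its WT libraries had 33.1, 36.7 and 42.7 CPM (lowest, median, highest) and its TG libraries 49.9, 59.5 and 67.2. The genotypes did not overlap, with a log2 difference of 0.67 (SE 0.09). At 1 h and in quadriceps they overlapped, with log2 differences of 0.12 (SE 0.12) and -0.10 (SE 0.10).

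Foxo4 (ENSMUSG00000042903, chromosome X, 101254528 to 101260873) did not follow Foxo1 and Foxo3. At 6 h it had 37.4 ± 2.92 CPM in WT and 36.2 ± 3.40 in TG fat, a log2 difference of -0.05 (SE 0.08), although the spread between libraries was small (a coefficient of variation of 7.81% in WT). In the other sets its log2 differences were -0.09 (SE 0.19) and -0.07 (SE 0.19), and WT quadriceps replicate 1 stood apart at 166 CPM.

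Foxo6 (ENSMUSG00000052135, chromosome 4, 120267079 to 120287349), a FOXO factor that shuttles little between nucleus and cytoplasm, was close to the detection limit in fat and had 253 counts over the 20 quadriceps libraries. In quadriceps the WT libraries had 4.50, 8.43 and 13.6 CPM and the TG libraries 8.25, 11.9 and 15.6. The TG libraries were above the WT median in 9 of 10 cases, but the ranges overlapped and the log2 difference of 0.46 (SE 0.19) was not past the threshold.

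Ddit4 (ENSMUSG00000020108, chromosome 10, 59949669 to 59951834) had the highest fold between genotypes of the members at 6 h. The WT libraries had 28.1, 39.7 and 85.8 CPM and the TG libraries 211.9, 248 and 276. The lowest TG library was above the highest WT library, WT replicate 3, which lay well above the other WT libraries. The means were 45.2 ± 20.7 and 245 ± 22.1 CPM, a log2 difference of 2.44 (SE 0.24, 5.43-fold).

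At 1 h Ddit4 was at 84.8, 103 and 160.0 CPM in WT and 146.0, 202 and 255 in TG fat. The genotypes overlapped only through WT replicate 9, and 8 of 9 TG libraries were above every WT library, with a log2 difference of 0.89 (SE 0.12). The call at 1 h was lost without the 9 libraries with liver or duct transcripts, where the log2 difference was 0.91 and 3 WT and 6 TG libraries remained. In quadriceps WT had 275, 415 and 581 CPM and TG 474, 625 and 665. There 8 of 10 TG libraries were above every WT library, with a log2 difference of 0.49 (SE 0.10). In the same set the summed inducible heat shock markers were 50.4 to 2852 CPM in WT and 36.3 to 149.9 in TG, with a median log2 difference of -2.67 over the 3 genes, none past the threshold in edgeR and 3 under 0.05 unadjusted. Without the 3 libraries in doubt the log2 difference of Ddit4 was 0.51 and its call was kept. Side by side, the WT mean in fat was 109.7 CPM at 1 h and 45.2 at 6 h, and the TG mean 204 and 245; these tables were scaled separately, and the difference between times was not tested within a genotype.

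Ddit4l (ENSMUSG00000046818, chromosome 3, 137621612 to 137628333), the muscle paralog of Ddit4, showed no such pattern. In quadriceps WT libraries ran from 209 to 333 CPM and TG libraries from 170 to 441, with a log2 difference of 0.05 (SE 0.13). At 6 h in fat it was at 2.64 ± 1.56 CPM in WT and 2.18 ± 0.49 in TG, with a log2 difference of -0.28 (SE 0.35). At 1 h it was low in 14 libraries (0.894 to 6.16 CPM) and high in 4: WT replicate 2 at 31.4 CPM, WT replicate 9 at 56.3, TG replicate 4 at 73.6 and TG replicate 6 at 62.3. In the same 4 libraries the summed duct epithelium markers Lrp2 and Cldn10 were 119, 244, 317 and 272 CPM, and in the others at most 43.9. The part of that tissue in the Ddit4l values was not tested.

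Depp1 (ENSMUSG00000048489, chromosome 6, 116650609 to 116652794), a fasting-induced regulator of autophagy that FOXO factors switch on, was the member with the largest log2 difference at 1 h. Its WT libraries had 44.1, 79.9 and 122 CPM and its TG libraries 104, 213 and 278. In 7 of 9 TG libraries it was above every WT library, and TG replicates 6 and 8 lay within the WT range. The means were 84.8 ± 26.0 and 198 ± 67.8 CPM, a log2 difference of 1.21 (SE 0.22). This call was fragile: leaving out 1 library ended it except for WT replicates 3, 6 and 8 and TG replicates 4, 6, 8 and 9, although the log2 difference stayed between 1.13 and 1.30. It was also lost without the libraries with liver or duct transcripts, where the log2 difference was 1.42.

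At 6 h the WT libraries of Depp1 had 25.1, 82.9 and 117 CPM and the TG libraries 179, 273 and 304. The genotypes did not overlap, and the log2 difference was 1.84 (SE 0.36). The WT libraries were uneven, with replicates 1 and 5 at 32.1 and 25.1 CPM and the other 4 at 76.99 or more. WT replicates 1 and 5 and TG replicate 1, the lowest Depp1 values of their genotypes, also had the lowest summed adipocyte markers (31550, 29550 and 29370 CPM, against 33980 to 37550 in the other 9). With the marker sum as a covariate (chosen after the values were seen) the log2 difference was 1.83. In quadriceps the gene was at 60.6 ± 22.3 CPM in WT and 52.1 ± 11.2 in TG, with overlapping libraries and a log2 difference of -0.25 (SE 0.18). Depp1 lies within Rassf4, which is on the other strand, so reads of both genes may not be separated if strand was not used.

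Sesn1 (ENSMUSG00000038332, chromosome 10, 41809935 to 41908424) encodes a leucine-binding sestrin. In pgWAT at 6 h its WT libraries had 27.4, 29.6 and 36.4 CPM and its TG libraries 39.6, 49.6 and 55.9. The genotypes did not overlap, with a log2 difference of 0.70 (SE 0.09). At 1 h the means were 46.7 ± 8.38 CPM in WT and 49.4 ± 14.2 in TG, with overlapping ranges, and TG replicate 9 stood apart at 82.3 CPM. In quadriceps the log2 difference was 0.14 (SE 0.13), also with overlap. Sesn1 shares its position and strand with 9930024M15Rik, and reads there can be split between both genes.

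Sesn3 (ENSMUSG00000032009, chromosome 9, 14275067 to 14333101), a sestrin known as a FOXO target, did not follow Sesn1. At 6 h it was at 27.7 ± 3.50 CPM in WT and 26.1 ± 3.82 in TG, a log2 difference of -0.09 (SE 0.11). At 1 h the WT libraries ran from 50.8 to 75.5 CPM and the TG libraries from 59.3 to 103. Of the TG libraries, 4 of 9 were above every WT library, and the log2 difference of 0.24 (SE 0.12) was not past the threshold. The third sestrin, Sesn2, which the integrated stress response induces and which is not a member, had a log2 difference of 0.35 at 6 h (SE 0.18, edgeR adjusted p = 0.226), and without WT replicate 3 its adjusted p was 0.0147.

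**Figure D2:**
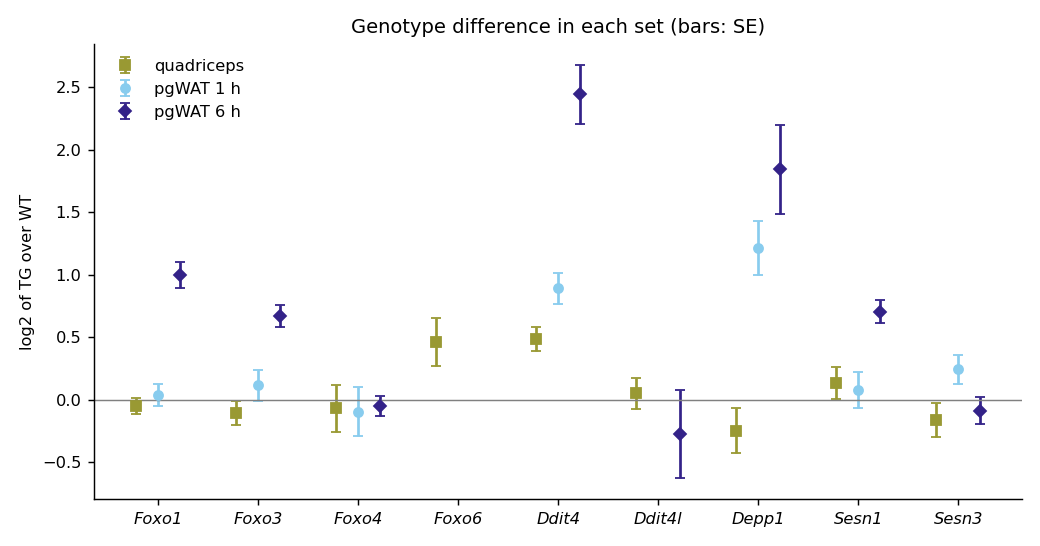
Log2 of TG over WT for each gene in quadriceps (squares), pgWAT at 1 h (circles) and pgWAT at 6 h (diamonds), with bars for the SE; a gene without a symbol in a set was not tested there. Ddit4 is above 0 in all 3 sets, from 0.49 to 2.44, and Foxo4 lies within 0.10 of 0 in all 3.

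The early and the late fat samples were compared through the interaction of genotype and set in 1 fit of the 4 pgWAT groups. Of the 8 members tested, 4 had a difference that was past the threshold as more positive at 6 h, where 1.87% of 13022 genes were more positive and 2.33% more negative; nothing is read from that count, since both contrasts were in view when the members were chosen. The 6 h difference exceeded the 1 h difference by 1.55 (SE 0.24) for Ddit4, 0.96 (SE 0.14) for Foxo1, 0.63 (SE 0.19) for Sesn1 and 0.56 (SE 0.16) for Foxo3, all on the log2 scale. For Depp1 it was 0.63 (SE 0.40), for Foxo4 0.06 (SE 0.23) and for Sesn3 -0.33 (SE 0.17). Ddit4l, with the uneven 1 h values given above, was at -0.73 (SE 1.15). The calls of Foxo3 and Sesn1 were lost without a filter on low counts and without the libraries with liver, duct or heat shock transcripts.

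Levels in the 2 tissues were compared within WT mice, in libraries of the same kit, a contrast that did not choose the members. Of the 8 genes tested, 6 were higher in quadriceps than in pgWAT at 1 h and 1 was higher in pgWAT, against 40.2% and 40.6% of 10319 genes. Ddit4l had the highest fold, with 353 ± 51.8 CPM in muscle (n = 10) and 9.82 ± 14.5 in fat (n = 9), a log2 difference of 4.97 (SE 0.49, edgeR adjusted p = 2.89e-08). It was 6.61 without the libraries with liver, duct or heat shock transcripts, which include the fat libraries with high Ddit4l, and 3.78 with DESeq2. Ddit4 followed with 550.0 ± 118 and 84.7 ± 17.5 CPM, a difference of 2.69 (SE 0.13, edgeR adjusted p = 2.08e-16). Against WT pgWAT at 6 h the log2 difference was 6.98 for Ddit4l and 3.53 for Ddit4.

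Among the FOXO factors, Foxo4 was higher in muscle by 2.57 on the log2 scale, Foxo1 by 1.66 and Foxo3 by 1.20, with edgeR adjusted p-values of 1.25e-13, 4.62e-16 and 1.64e-10. Against WT pgWAT at 6 h the order of Foxo4 and Foxo1 turned, with 1.38 for Foxo4, 1.84 for Foxo1 and 0.86 for Foxo3. Sesn1 was higher in muscle by 0.87 (SE 0.13, edgeR adjusted p = 6.41e-07). Sesn3 went the other way, with 33.8 ± 6.85 CPM in muscle and 49.8 ± 6.90 in fat (log2 difference -0.58, edgeR adjusted p = 7.17e-05). That direction did not hold against WT pgWAT at 6 h, where the log2 difference was 0.19 (edgeR adjusted p = 0.163). Depp1 was at 76.9 ± 28.6 and 65.4 ± 19.8 CPM, and its difference of 0.26 (SE 0.21, edgeR adjusted p = 0.254) was within the spread between libraries. Muscle came from clamped mice and was extracted with another kit, so tissue, clamp and extraction cannot be told apart. The CPM values in this comparison come from a joint scaling of both tables and differ from those given per set.

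Within groups, members were asked whether they rose and fell together from library to library, which also does not use the genotype difference. Over the 7 members tested in every set and all 50 libraries, with group means removed, Pearson's r of log2 CPM for the 21 pairs ran from -0.193 to 0.368. No pair passed the threshold after Benjamini-Hochberg adjustment of two-sided permutation p-values (100000 resamples), and 4 were under 0.05 unadjusted. The pair Foxo1 and Depp1 had r = 0.357 (permutation p = 0.0083, adjusted 0.149) and Spearman's rho = 0.433 (permutation p = 0.00167, adjusted 0.0351). Its r within the quadriceps set was 0.321, within the 1 h fat 0.407 and within the 6 h fat 0.337, and 0.321 without the 2 libraries farthest from the median of Foxo1. For Foxo3 and Ddit4 r was 0.323 (permutation p = 0.0172, adjusted 0.149) and rho 0.306 (permutation p = 0.0373, adjusted 0.247), with 0.361, 0.327 and 0.345 in the 3 sets. The largest r belonged to Foxo4 and Sesn3 at 0.368 (adjusted permutation p = 0.149). It fell to 0.235 without the 2 farthest libraries and was 0.515 without the libraries in doubt (adjusted permutation p = 0.0888).

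Sesn1 varied together with summed fibroblast and progenitor markers in the early fat samples. Of 28 relations between the 7 members and summed adipocyte or fibroblast and progenitor markers within the pgWAT groups (computed after the values were seen), the strongest was Sesn1 against the fibroblast and progenitor markers Pdgfra, Dcn, Col1a1 and Pi16 at 1 h. Over the 18 libraries r was 0.859 (permutation p = 4e-05, adjusted 0.00112) and rho 0.827 (permutation p = 8e-05, adjusted 0.00224), and r was 0.711 without the 2 farthest libraries. It was 0.663 within WT and 0.950 within TG, and 0.645 among the 12 libraries whose number in the labels leaves 3 when divided by 8, the only such group with enough libraries. TG replicate 9, which stood apart for Sesn1, had a marker sum of 4754 CPM against 1563 to 3183 in the others. That library also had the highest summed macrophage (1560 CPM) and mesothelial (453.8 CPM) markers at 1 h, and relations to those markers were not computed. At 6 h, over 12 libraries, r was 0.124 (permutation p = 0.72, adjusted 0.916) and rho 0.126, and the marker sums there spanned only 2134 to 3017 CPM. For Depp1 against the adipocyte markers at 1 h, r was 0.524 (permutation p = 0.0334, adjusted 0.187) and rho 0.525, with 0.823 within TG and 0.150 within WT. At 6 h, over 12 libraries, r was 0.798 (permutation p = 0.00357, adjusted 0.05) and rho 0.636 (permutation p = 0.047, adjusted 0.263), with 0.712 without the 2 farthest libraries, 0.904 within WT and 0.79 within TG; 3 of those libraries had the low marker sums given above.

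**Figure D3:**
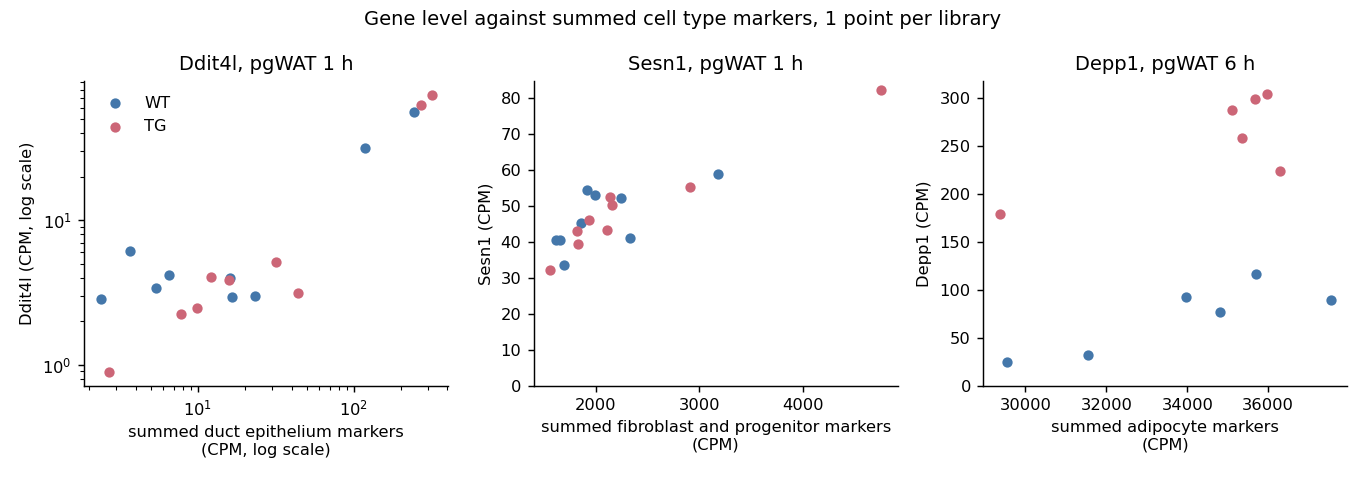
Level of a member against the summed CPM of a cell type's markers, with 1 point per library, WT in blue and TG in red: Ddit4l against duct epithelium markers at 1 h (both axes on a log scale), Sesn1 against fibroblast and progenitor markers at 1 h, and Depp1 against adipocyte markers at 6 h. Ddit4l is above 31 CPM only in the 4 libraries with duct marker sums over 100 CPM, Sesn1 is highest in the library with the highest fibroblast sum, and Depp1 is lowest in each genotype where the adipocyte sum is at most 31550 CPM.

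The genes most like each member over the 50 libraries, by Pearson's r of log2 CPM with group means removed among 7398 genes tested in all sets, were the following. For Foxo1 they were Lpin1, a phosphatidate phosphatase (r = 0.644), Afap1 (0.607), Gpat4 (0.607) and Tns1 (0.593). For Foxo3 they were Dcaf7 (0.541), Cryz (0.535), Rpl31 (0.533) and Zscan21 (0.533), and for Foxo4 Cdk16 (0.784), Fxyd1 (0.772), Atf5 (0.765) and Swi5 (0.764). For Ddit4 they were Serpinb6a (0.532), the insulin receptor phosphatase Ptpn1 (0.522), Polr2a (0.509) and Ssr4 (0.483).

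For Depp1 they were Asph (0.540), the kinase Pim3 (0.512), the ceramidase Acer2 (0.502) and Ivd (0.488). For Sesn1 they were Dcn, a matrix proteoglycan that is on the fibroblast list above (0.610), Hexa (0.592), Aftph (0.591) and F2r (0.580), and for Sesn3 Dpp7 (0.595), Marf1 (0.593), Marchf2 (0.589) and Cmpk1 (0.560). These libraries share depth and tissue makeup, and the median r over all genes lay between -0.018 and 0.011 for each member. The likeness of Foxo4 came from quadriceps and pgWAT at 1 h, where its r with Cdk16 was 0.835 and 0.763, more than from 6 h, where it was 0.270. That of Sesn1 with Dcn was 0.893 in pgWAT at 1 h and -0.088 at 6 h.

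Of 159 other genes of these pathways, in 6 lists, 134 were tested in quadriceps, 144 in pgWAT at 1 h and 152 at 6 h. At 1 h none was past the threshold with edgeR or with DESeq2, and 5 were under 0.05 unadjusted in edgeR, in a set where 0.0541% of all tested genes were higher and 0.018% lower, so nothing is read from a count of 0. In quadriceps 1 rose and 3 fell, against 1.09% and 0.942% of all tested genes. At 6 h 23 of 152 rose and 12 fell, against 6.88% and 7.54% of all tested genes, so the number that fell is near the share over all genes. Their median log2 difference was 0.05, against 0.002 over all tested genes.

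In quadriceps the gene that rose was Sgk1, a kinase that phosphorylates FOXO factors and responds to glucocorticoids, from 384 ± 23.2 to 513 ± 57.0 CPM (log2 0.42, SE 0.06, edgeR adjusted p = 3.99e-05), with no overlap between genotypes. Flcn, the folliculin that controls Rag GTPases, fell by 0.61 (edgeR adjusted p = 0.00227), and Gabarapl1, an autophagosome protein and FOXO target, fell by 0.46 (edgeR adjusted p = 0.00592). Nfe2l2, which encodes the antioxidant factor NRF2, fell by 0.38 (edgeR adjusted p = 0.0493). Leaving out 1 library ended the Nfe2l2 call except for WT replicates 1, 6 and 8 and TG replicates 5 and 7, with adjusted p up to 0.105. It was also lost with RLE scaling, DESeq2, limma-voom and without the 3 libraries in doubt, 2 of which were those with the highest heat shock sums (adjusted p up to 0.156).

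At 6 h, of 32 tested FOXO target genes 10 rose and 3 fell, with a median of 0.13; over all tested genes 6.88% rose and 7.54% fell, and the 3 that fell are near that share. Pdk4, the kinase that shuts off pyruvate oxidation, rose from 20.3 ± 6.51 to 115 ± 39.2 CPM (log2 2.50, SE 0.26, edgeR adjusted p = 7.13e-05). Zfand5, a partner of the proteasome, rose from 77.2 ± 5.43 to 142.5 ± 18.7 CPM (log2 0.89, edgeR adjusted p = 1.07e-06). Gadd45a, a growth arrest gene, fell by 1.54 (edgeR adjusted p = 7.74e-05) and Irs2, the insulin receptor substrate that FOXO1 is known to induce, fell by 1.00 (edgeR adjusted p = 0.000261). The list held changes in both directions. Only transcripts were measured, and the part of FOXO factors in these differences was not tested.

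Of 38 FOXO kinases, 14-3-3 proteins and cofactors 5 rose and 3 fell at 6 h. Over all tested genes 6.88% rose and 7.54% fell, and the 3 that fell are near that share. Sgk1 rose by 1.28 and its relative Sgk3 by 0.65 (edgeR adjusted p = 7.9e-05 and 0.000703). Foxk1, a forkhead factor that competes at FOXO sites, fell by 0.36 (edgeR adjusted p = 0.000926). Akt1 and Akt2, the kinases that hold FOXO out of the nucleus, had log2 differences of 0.04 and -0.09 (edgeR adjusted p = 0.752 and 0.562).

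Of 38 sestrin partners 3 rose and none fell, and the number that rose is near the 6.88% of all tested genes. Prkab2, an AMPK subunit, rose by 0.71 (edgeR adjusted p = 7.75e-05), and the GATOR2 subunits Mios and Sec13 rose by 0.38 and 0.25 (edgeR adjusted p = 0.0173 and 0.0499). The Mios call was lost when only the total gene count was used for scaling (0.31, adjusted p = 0.0588), and that of Sec13 on leaving out any library but WT replicates 1 and 4, with adjusted p up to 0.11. The Sec13 call was also lost with total-count scaling, with either other filter and without the library in doubt (up to 0.234).

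Of 21 genes of the TSC and mTOR complexes 4 rose and 1 fell, against 6.88% and 7.54% of all tested genes. The number that fell is near that share. Mtor itself rose from 40.8 ± 4.39 to 51.7 ± 3.98 CPM (log2 0.34, edgeR adjusted p = 0.00763), its inhibitor Deptor by 0.38 (edgeR adjusted p = 0.0197) and Txnip, a thioredoxin-binding protein that binds DDIT4, by 0.37 (edgeR adjusted p = 0.0076), while Prr5l, an mTORC2 partner, fell by 0.70 (edgeR adjusted p = 0.00667). With the total gene count only, Deptor was at 0.31 with an adjusted p of 0.0802. Of 18 mTORC1 outputs 1 rose and 2 fell, near the same shares. Lpin1 rose by 0.71 (edgeR adjusted p = 0.00146), and the lysosomal factors Tfe3 and Tfeb fell by 0.28 and 0.54 (edgeR adjusted p = 0.0278 and 0.0483). The Tfe3 call held on leaving out WT replicate 1, 2 or 5 or TG replicate 1 or 4 but no other, with adjusted p up to 0.0639, and that of Tfeb on leaving out TG replicate 1 or 6 but no other, with adjusted p up to 0.118. Both calls were also lost with a replicate block and without the library in doubt, and that of Tfeb with no filter and with the adipocyte covariate (up to 0.0591 for Tfe3 and 0.075 for Tfeb).

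Of 9 tested genes for known inducers of Ddit4, 3 fell and 1 rose at 6 h, and their part in the Ddit4 values was not tested. Over all tested genes 7.54% fell and 6.88% rose, and the number that rose is near that share. Nr3c1, which encodes the glucocorticoid receptor, fell from 137 ± 12.9 to 89.1 ± 7.19 CPM (log2 -0.62, edgeR adjusted p = 1.89e-05), lower in 6 of 6 TG libraries. Ddit3, the stress factor CHOP, fell by 0.68 (edgeR adjusted p = 0.00497) and Trp53, which encodes p53, by 0.48 (edgeR adjusted p = 0.0381). Atf4, the effector of the integrated stress response, rose by 0.26 (edgeR adjusted p = 0.0454), and Hif1a had a log2 difference of 0.23 (edgeR adjusted p = 0.149), which was past the threshold with a replicate block and with the adipocyte marker sum as a covariate (adjusted p down to 0.02). On leaving out 1 library, Trp53 held its call only without WT replicate 2, 4, 5 or 6 or TG replicate 1 (adjusted p up to 0.103), and Atf4 only without TG replicate 1, 2, 3 or 4 (up to 0.0909). The Atf4 call was also lost with total-count scaling, a filter at 5 CPM, limma-voom and a replicate block (adjusted p up to 0.179), and the Trp53 call without the library in doubt and when low counts were left in (up to 0.0676).

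Most genes on a list of glucocorticoid-induced transcripts were higher in TG fat at 6 h. The list shares Sgk1, Pdk4 and Angptl4 with the lists above. It was written with earlier results of these data known, so its counts are a description and nothing is read from them. Of its 20 tested genes 17 rose and none fell, against 6.88% and 7.54% of all tested genes. The list's summed level was 3676 to 6045 CPM in WT and 12610 to 19810 in TG libraries. Fkbp5, a chaperone that the glucocorticoid receptor induces, rose from 51.1 ± 12.3 to 432 ± 52.7 CPM (log2 3.08, SE 0.14, edgeR adjusted p = 3.97e-09). In quadriceps the list's sum was 4459 to 5988 CPM in WT and 5938 to 7085 in TG. There 5 of 18 genes were higher and 2 lower, against 1.09% and 0.942% of all tested genes. Fkbp5 had a log2 difference of 0.26 in quadriceps (edgeR adjusted p = 0.267). At 1 h the sum was 2369 to 4203 CPM in WT and 3374 to 4562 in TG, with none of 17 past the threshold, 4 under 0.05 unadjusted. Of all tested genes 0.0541% were higher and 0.018% lower at 1 h, so nothing is read from a count of 0. The part of glucocorticoids in the members' values was not tested. Among cell type markers at 6 h, the summed adipocyte markers overlapped between genotypes (29550 to 37550 CPM in WT, 29370 to 36300 in TG), summed lymphocyte markers were 40.5 to 75.2 CPM in WT and 24.9 to 54.9 in TG, and summed skeletal muscle markers were 21.5 to 50.8 and 61.9 to 119 CPM. With the adipocyte marker sum as a covariate, 5 members were past the threshold at 6 h and 2 at 1 h, as without it. This covariate was chosen after the values were seen, and the part of tissue makeup in the members' differences was not tested.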

How the data were processed

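The authors deposited raw counts per gene, without normalization, in 1 table per set, per the file headers and values. Libraries were made with the QuantSeq 3′ mRNA kit (FWD), per the labels' protocols, with a UMI module in the quadriceps and 1 h sets and the standard kit at 6 h. STAR 2.7.10, cutadapt 1.18, UMI-tools 1.1.2 and bcl2fastq 2.20.0.422 are named, without their roles, per the submitters' processing notes. Not given in the sources used here were the counting program, its strand setting, the handling of UMIs and the build of each table. A 3′ count reads transcript ends and does not scale with length.

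Rows that name no gene were left out; gene rows held a mean of 74.9%, 65.3% and 99.8% of the counts in quadriceps, pgWAT at 1 h and pgWAT at 6 h. Samples were grouped by title. For TG quadriceps replicate 10 the group was taken from the title (clamped), although the treatment entry says 1 h. Each set was tested as TG against WT with edgeR 4.0.16 in R 4.3.3 (filterByExpr, TMM, robust quasi-likelihood fit, Benjamini-Hochberg over all tested genes, threshold 0.05). SEs are of the fitted log2 difference, and log2 CPM used a prior count of 2. Covariation was computed in Python 3.11.15 by permutation within groups. The fits were tested on simulated data.

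The members, the 6 pathway lists, the 14 marker lists and the naming rule were chosen with earlier results of these data known. Named were all members, up to 4 genes per pathway list and set by smallest p, the 4 genes most like each member, and Nr3c1, Hif1a, Atf4, Sesn2, Mtor, Akt1, Akt2 and Fkbp5; Angptl4 was named after its values were seen. A gene that the rule names is not reported here. Alternatives were RLE and total-count scaling, other filters, DESeq2 1.42.0, limma-voom (limma 3.58.1), a replicate block, the library number, and libraries left out.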

Additional observations from a re-analysis of the deposited data

Results flagged for a closer look

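Of 54 groups (9 genes in 6 groups of samples), 8 held a library whose gap to the nearest other exceeded Dixon's critical value at the 95% level; chance flags about 1 in 20 groups. These were Foxo4 in WT quadriceps replicate 1 (166.2 CPM), Ddit4 in TG quadriceps replicate 1 (473.9 CPM, the lowest TG value), Foxo3 in TG pgWAT 1 h replicate 6 (59.14 CPM) and Sesn1 in TG pgWAT 1 h replicate 9 (82.29 CPM). In the WT pgWAT 6 h set they were Ddit4 in replicate 3 (85.76 CPM) and Sesn1 in replicate 4 (36.37 CPM). The remaining ones, both of Foxo6 near the detection limit, were WT pgWAT 1 h replicate 9 (5.925 CPM) and TG pgWAT 6 h replicate 4 (2.493 CPM).

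The interaction in edgeR, the genotype difference at 6 h minus that at 1 h in pgWAT, was past the threshold for Ddit4 (1.552 on the log2 scale), Foxo1 (0.9626), Sesn1 (0.6253) and Foxo3 (0.5552). Members were chosen with both contrasts in view, so these values are a description and nothing is read from the test. Kit and sequencing set changed together with time, so their parts in this difference cannot be told apart.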

How the results depend on the processing

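The calls of Ddit4 in quadriceps and of all 5 members at 6 h were kept under every alternative run for those sets, including each library left out. The alternatives reuse the counts on which the members were chosen, so kept calls are a description and no separate evidence. At 1 h the number of members past the threshold was 1, in place of 2, with no filter on low counts, with a replicate block and with the library number as a factor, and 0 without the libraries with liver, duct or heat shock transcripts; with 1 library left out it ran from 1 to 2. Of the 4 members that differed between the fat sets, 2 were past the threshold with no filter and 2 without those libraries. The 4 other pathway genes called in quadriceps became 7 with no filter, and 3 to 7 with 1 library left out; the 7 came without WT replicate 6. For pairs of members, 1 passed by Spearman's rho and 1 with total-count scaling, where none did otherwise. Sesn3 between WT tissues turned to 0.19 against WT pgWAT at 6 h. The cause of these changes was not tested.

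A replicate block gave 1 member in quadriceps, 1 at 1 h and 5 at 6 h. Same-numbered samples had a correlation over 0.1 in 3 of 10, 4 of 9 and 1 of 6 pairs. The labels do not say whether the numbers pair samples, and weak correlations cannot decide it. Depth limits Foxo6 and Ddit4l in fat.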
